A study of Homo sapiens with 6 samples.

Results

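The genes described here encode the protein parts and the classical regulators of the spliceosome: the SR proteins, the heterogeneous nuclear ribonucleoproteins (hnRNP), the SF3A and SF3B subunits, the Sm and other small nuclear ribonucleoprotein (snRNP) proteins, U2AF, the PRPF genes and the LSM genes. They were chosen by gene symbol alone, and 80 of the 16953 genes in the authors' deposited table fitted: 12 SR, 22 hnRNP, 9 SF3, 11 SNRP, 4 U2AF, 12 PRPF and 10 LSM genes. All 80 are protein-coding genes in GENCODE 29 (GRCh38). A further 7 protein-coding symbols of that annotation fit the same pattern and were not analysed here, among them LSM2 and PRPF8.

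The RNA came from H1048, an established human small cell lung cancer line with a wild-type genotype label, in 6 samples. In 3 of them the cells had been given ISP-I (isovalerylspiramycin I, a macrolide) at 10 µM, and in 3 the solvent DMSO, each for 48 h; all were grown in the same serum-containing medium. The design text calls the samples of each treatment biological replicates, and the study asks which genes differ between them. The authors' deposited table compares a D to F trio of libraries with an A to C trio. The labels used here do not say which trio received ISP-I. No direction is therefore assigned to ISP-I or to DMSO. Positive log2 fold changes below are taken to mean more RNA in D to F, from the letter order in the comparison's name. Values per library, and with them levels, depth and standard errors, were not used here.

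Introns are removed by the spliceosome, which is assembled on each intron from snRNPs, particles of small nuclear RNA and protein. Seven-membered Sm rings hold the RNAs of most snRNPs, an LSM ring holds U6, and SF3A and SF3B anchor the U2 snRNP at the branch site, next to the polypyrimidine tract and splice acceptor that U2AF reads. SR proteins bind exons and mostly promote their inclusion, hnRNP proteins often repress it, and both kinds also act in RNA export, stability and translation. Many of these genes regulate their own level through alternative exons that send the transcript to nonsense-mediated decay.

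All values in this and the following paragraphs are those of the authors' deposited table, in which a gene is called at an adjusted p (Benjamini-Hochberg) under 0.05. The splicing factor genes shifted in both directions and mostly by small amounts. Among 78 members with an adjusted p, 50 (64.1%) were called in either direction, against 57.6% of all genes tested. In the D to F trio 29 (37.2%) were higher, against 29.7% of all genes tested, and 21 (26.9%) were lower, against 27.9%. Their median log2 fold change was 0.06, against 0.05 in all other genes. A change of at least 2-fold was called in 3 of 78 members (3.85%), against 24.1% of all genes tested, and one of at least 1.5-fold in 16 (20.5%), against 40.7%. The median absolute log2 fold change was 0.36 in the members and 0.67 in all other genes. Levels were not used, so the members and the other genes were not matched for expression in these comparisons of size. In these bulk samples a change in RNA per cell and a change in the mix of cells cannot be told apart.

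**Figure D1:**
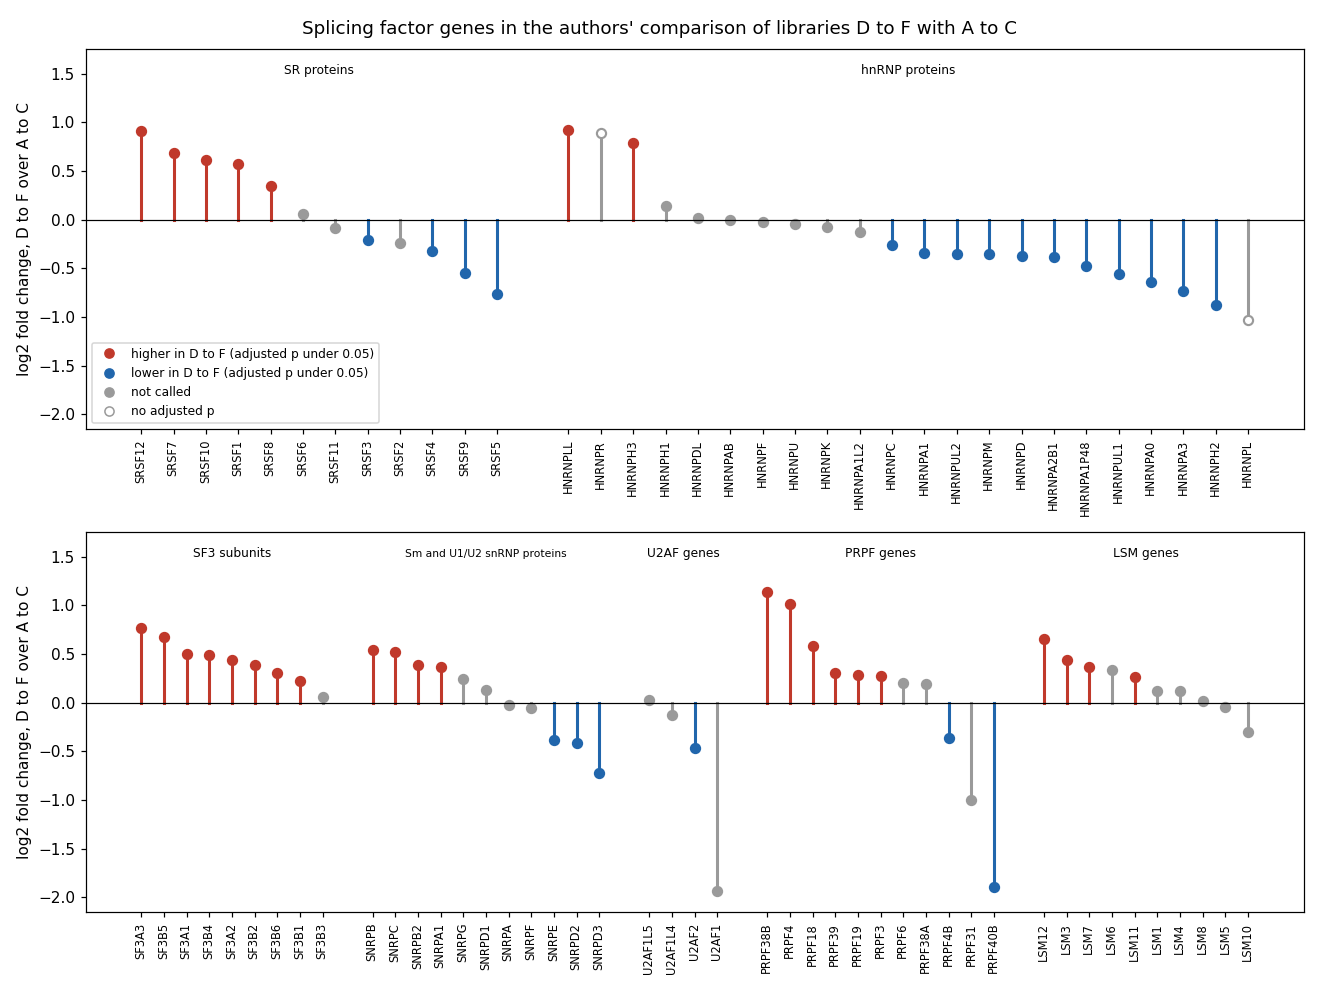
Log2 fold change (libraries D to F over A to C, authors' deposited table) of the splicing factor genes, 1 left out, grouped by class and ordered within it; colour marks the call at an adjusted p under 0.05 and an open circle a gene with no adjusted p. The SF3 subunits sit at or above 0, most hnRNP genes below it, and the SR and Sm genes on both sides.

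**Figure D2:**
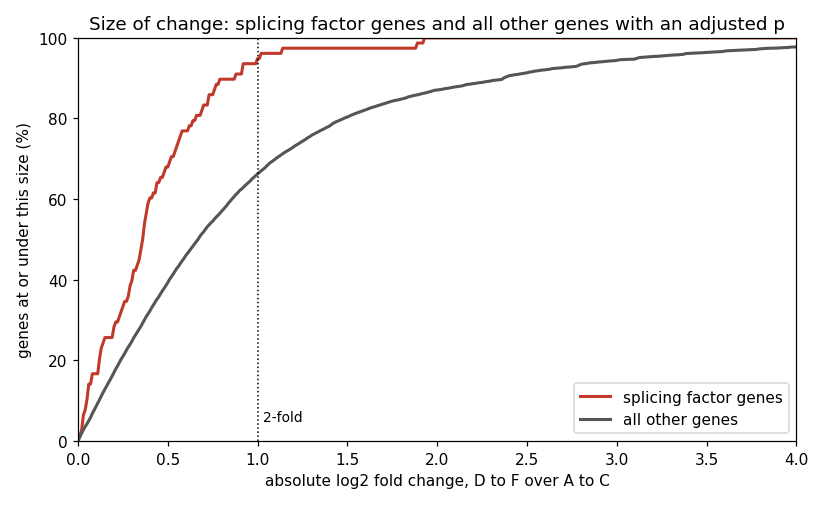
Cumulative share of genes (%) by absolute log2 fold change, for the 78 splicing factor genes and for all other genes with an adjusted p; the axis ends at 4. The curve of the splicing factor genes lies to the left, with 3 of 78 called at 2-fold or more.

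The classes differed in which way they went. SF3 subunits were 8 higher and 0 lower of 9, and LSM genes 4 higher and 0 lower of 10. hnRNP genes ran the other way, with 2 higher and 11 lower of 20. SR genes were divided, 5 higher and 4 lower of 12, as were the Sm and U1/U2 snRNP genes, 4 higher and 3 lower of 11. PRPF genes were 6 higher and 2 lower of 12, and 1 of 4 U2AF genes was lower with none higher. These counts are descriptions set beside the 29.7% and 27.9% of all genes; the classes were not tested against each other.

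**Figure D3:**
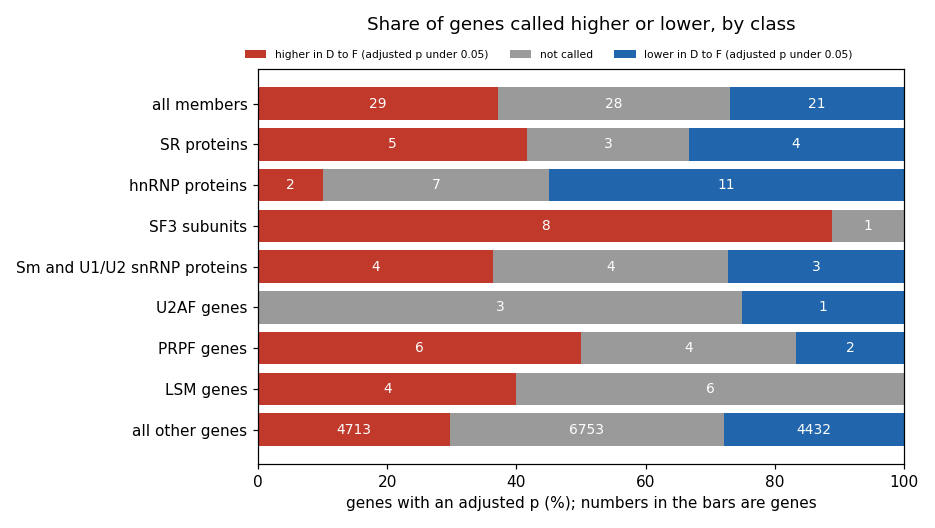
Share of genes with an adjusted p (%) called higher in libraries D to F, not called, or called lower, for all splicing factor genes, each class and all other genes; numbers in the bars are genes. SF3 subunits hold 8 higher of 9 and hnRNP genes 11 lower of 20.

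SF3A and SF3B, the complexes through which the U2 snRNP grips the branch site, were higher in nearly every subunit. All 3 SF3A subunits passed: SF3A3 had a log2 fold change of 0.77 (1.7-fold, adjusted p = 1.35e-16), SF3A1 of 0.50 (adjusted p = 3.12e-05) and SF3A2 of 0.44 (adjusted p = 0.000585). Of the 6 SF3B subunits that fit the symbol rule 5 passed, and PHF5A, an SF3B subunit outside the rule, is given further below. SF3B5, a small structural subunit, was at 0.68 (adjusted p = 3.38e-11), SF3B4 at 0.49 (adjusted p = 1.76e-08) and SF3B2 at 0.39 (adjusted p = 5.76e-06). SF3B6, which sits at the branch-point adenosine, was at 0.31 (adjusted p = 0.0212), and SF3B1, the large scaffold that is recurrently mutated in blood cancers, at 0.22 (adjusted p = 0.0103). SF3B3 was at 0.06 and was not called (adjusted p = 0.624). The median log2 fold change of the 9 subunits was 0.44, and none reached 2-fold.

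The promoters of these jointly higher subunits were read from RefSeq (GRCh38.p14; 250 bases before to 50 after the gene start), where 68 of the 80 members and 8 of the 9 SF3 genes had an entry. In 6 of 8 SF3 promoters (75%) the ETS core CCGGAAGT occurred on one strand or the other, against 9 of 60 promoters (15%) of the other members and 7.04% of 12963 promoters of genes in the table. Over all members the core was in 8 of 27 promoters of members called higher (29.6%) and 5 of 18 of those called lower (27.8%). Of those 8 promoters, 6 are the SF3 promoters, and the others are those of SNRPA1 and SNRPB. Every SF3 gene with an entry was called higher, so the class itself holds no contrast of direction. Whether the core goes with the direction was not tested. Of the members not called, 2 of 23 held it (8.7%). Each stretch below is given on the gene's own strand with the core, or its reverse complement in SF3A3, in capitals, to show where the shared letters lie.
SF3A1: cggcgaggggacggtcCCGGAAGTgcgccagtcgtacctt
SF3A2: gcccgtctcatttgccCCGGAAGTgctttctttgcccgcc
SF3A3: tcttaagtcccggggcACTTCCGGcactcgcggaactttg
SF3B2: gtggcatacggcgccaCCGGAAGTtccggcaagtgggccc
SF3B4: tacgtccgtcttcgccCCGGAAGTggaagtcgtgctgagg
SF3B6: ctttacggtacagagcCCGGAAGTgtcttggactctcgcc
These stretches lie at chr22:30356920-30356959 on the minus strand, chr19:2236799-2236838 on the plus strand, chr1:37990068-37990107 on the minus strand, chr11:66052295-66052334 on the plus strand, chr1:149927806-149927845 on the minus strand and chr2:24076462-24076501 on the minus strand, in the order shown. The core began between 159 bases (SF3B6) and 9 bases (SF3A2) before the RefSeq gene start. In the GENCODE annotation the genes SF3A1, SF3A2, SF3A3, SF3B2 and SF3B4 start further upstream, and their cores lie inside the annotated gene. The core of SF3B6 lies before the start in both annotations. The match describes letters in a window; no factor binding was measured. SF3B1 and SF3B5, both called higher, hold no core in this window, and SF3B3 had no entry.

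Among the SR proteins, which share an arginine-serine rich domain, the higher genes were led by SRSF7 (log2 fold change 0.69, 1.62-fold, adjusted p = 3.34e-12), an RNA export adaptor as well as a splicing factor. SRSF10, a repressor of splicing after dephosphorylation in heat shock, was at 0.61 (adjusted p = 6.08e-09). SRSF12, a relative of SRSF10, had the largest value of the class (0.91, 1.88-fold, adjusted p = 4e-06). SRSF1, the founding SR protein and a known oncoprotein, was at 0.57 (adjusted p = 6.35e-06), and SRSF8 at 0.35 (adjusted p = 0.00218). The lower genes were led by SRSF5 (-0.76, 1.69-fold lower, adjusted p = 8.25e-11) and SRSF9 (-0.55, adjusted p = 6.45e-06), followed by SRSF4 (-0.32, adjusted p = 0.000584) and the export adaptor SRSF3 (-0.21, adjusted p = 0.0288). SRSF2 (-0.24, adjusted p = 0.0927), SRSF11 (-0.08) and SRSF6 (0.06, adjusted p = 0.573) were not called. All 12 SR genes have at least 1 transcript annotated as a target of nonsense-mediated decay in GENCODE 29, as do 45 of all 80 members (56.2%) and 38.3% of the other protein-coding genes in the table. Gene-level values do not separate such transcripts from those that are translated.

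The kinases that phosphorylate SR proteins gave a further set of values. In a list of SR protein kinases and phosphatase partners, 6 of 11 tested genes were higher in the authors' deposited table and 0 lower, with a median log2 fold change of 0.51. The 54.5% called in either direction stands near the 57.6% of all genes tested, and the 54.5% called higher stands beside 29.7%. The nuclear CLK kinases were the largest: CLK4 was at 1.36 (adjusted p = 2.87e-24), CLK1 at 1.09 (adjusted p = 8.7e-20) and CLK3 at 0.93 (adjusted p = 3.16e-17). The cytoplasmic and nuclear kinases SRPK1 (0.03, adjusted p = 0.786) and SRPK2 (0.15, adjusted p = 0.226) were not called. CLK2 had no adjusted p, and DYRK1B was not analysed here.

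Most hnRNP genes with a call were lower. HNRNPH2, a binder of guanine runs, had the lowest value among them (log2 fold change -0.88, 1.84-fold lower, adjusted p = 1.41e-14). The A and B group, abundant proteins that silence exons and package nascent RNA, was lower in HNRNPA3 (-0.73, 1.66-fold lower, adjusted p = 2.38e-14), HNRNPA0 (-0.64, 1.55-fold lower, adjusted p = 1.67e-12), HNRNPA2B1 (-0.38, adjusted p = 2.49e-05) and HNRNPA1 (-0.34, adjusted p = 0.00136). HNRNPA1P48, a sequence relative of HNRNPA1, was also lower (-0.47). It has 29.9% of its 100-base stretches in common with HNRNPA1, and the part of this sharing in its value was not tested. HNRNPUL1 was at -0.56 (adjusted p = 3.98e-08), the mRNA decay factor HNRNPD at -0.37, HNRNPUL2 at -0.35, HNRNPM at -0.35 and HNRNPC, which binds uridine tracts, at -0.26 (adjusted p = 0.00421). Apart from HNRNPH2, HNRNPA3 and HNRNPA0 none of the lower genes reached 1.5-fold.

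Only HNRNPLL (0.92, 1.89-fold, adjusted p = 4.66e-18) and HNRNPH3 (0.79, 1.72-fold, adjusted p = 1.16e-16) were called higher among the hnRNP genes with an adjusted p. HNRNPLL is known for controlling exon skipping of the CD45 transcript in T cells. The H and F genes, close relatives that bind guanine runs, were thus spread out: HNRNPH3 was higher, HNRNPH2 lower, and HNRNPH1 (0.14, adjusted p = 0.489) and HNRNPF (-0.02, adjusted p = 0.841) were not called. HNRNPK, HNRNPU, HNRNPDL, HNRNPAB and HNRNPA1L2 were also not called, at log2 fold changes between -0.12 and 0.02. HNRNPL and HNRNPR had no adjusted p. The fold change listed for HNRNPL (-1.03) is shared to 3 decimals by 187 genes and that for HNRNPR (0.89) by 377, so neither value informs on the gene itself.

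HNRNPH2 and HNRNPH3, relatives that went opposite ways, are shown by their promoters (RefSeq, GRCh38.p14, 300 bases each). HNRNPH2 lies at chrX:101407972-101408271 on the plus strand and HNRNPH3 at chr10:68331443-68331742 on the plus strand. Capitals mark the CCAAT box (CCAAT), the GC box (GGGCGG) and the E-box (CACGTG) on either strand; the other 5 motifs searched are absent from both.
HNRNPH2: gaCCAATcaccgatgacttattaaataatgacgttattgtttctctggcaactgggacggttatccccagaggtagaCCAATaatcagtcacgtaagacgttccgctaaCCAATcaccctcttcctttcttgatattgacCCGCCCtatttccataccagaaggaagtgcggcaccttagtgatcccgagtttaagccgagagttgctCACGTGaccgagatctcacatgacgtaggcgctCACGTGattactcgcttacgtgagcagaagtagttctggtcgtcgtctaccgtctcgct
HNRNPH3: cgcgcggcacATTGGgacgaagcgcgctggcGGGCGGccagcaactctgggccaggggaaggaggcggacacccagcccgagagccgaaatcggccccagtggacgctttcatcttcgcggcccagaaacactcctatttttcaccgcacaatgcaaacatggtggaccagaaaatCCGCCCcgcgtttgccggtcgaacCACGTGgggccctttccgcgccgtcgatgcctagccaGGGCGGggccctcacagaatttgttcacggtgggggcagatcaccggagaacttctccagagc
HNRNPH2 holds 3 CCAAT boxes, 1 GC box and 2 E-boxes in a window of 48.7% GC, and HNRNPH3 holds 1 CCAAT box, 3 GC boxes and 1 E-box in 64% GC. The E-box occurred in 7 of 20 hnRNP promoters (35%), against 1 of 48 promoters (2.08%) of the other members and 9.19% of those of genes in the table. The CCAAT box occurred in 13 of 20 (65%), against 36.1%. Of the 7 hnRNP genes with an E-box, HNRNPH3 was higher, HNRNPDL was not called, and the other 5 (HNRNPH2, HNRNPA3, HNRNPUL1, HNRNPD and HNRNPM) were lower. The class was mostly lower in any case, with 11 of 20 genes with an adjusted p (55%). HNRNPA0, HNRNPA2B1, HNRNPC and HNRNPUL2 were lower and HNRNPLL higher without an E-box in the window. Whether the E-box goes with the direction was not tested.

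**Figure D4:**
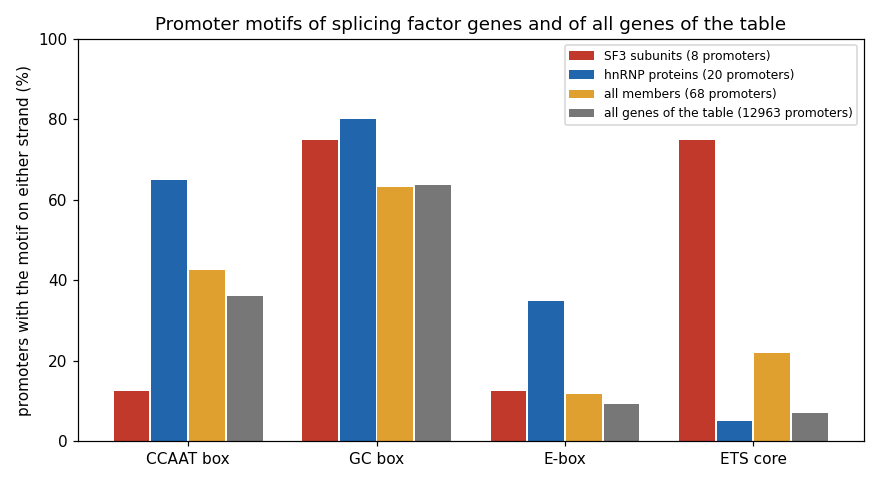
Share of promoters (%, RefSeq windows of 300 bases) that hold each of 4 motifs on either strand, for SF3 subunits, hnRNP genes, all splicing factor genes and all genes of the table. The ETS core stands at 75% in the SF3 promoters and 7.04% in all genes, and the E-box at 35% in the hnRNP promoters and 9.19% in all genes.

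The 8 motifs, searched on both strands, were the 4 above, the letters TATAAA for the promoter element of that name, TGACGTCA for the cAMP response element, AAGATGGCG for the YY1 core, and the NRF1 site; none contains another. The TATAAA element was in 8.82% of the members' promoters and 7.48% of those of all genes in the table, and the cAMP response element in 0 of 68 and 2.78%. Median GC content was 61.8% in members and 64% in all genes of the table.

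The Sm ring, whose 7 proteins form the same ring on U1, U2, U4 and U5, did not move as a unit. SNRPB was higher (log2 fold change 0.54, 1.45-fold, adjusted p = 1.09e-06). SNRPD3 (-0.72, 1.65-fold lower, adjusted p = 1.08e-13), SNRPD2 (-0.41, adjusted p = 0.000525) and SNRPE (-0.38, adjusted p = 0.0315) were lower. SNRPG (0.24, adjusted p = 0.094), SNRPD1 (0.13, adjusted p = 0.35) and SNRPF (-0.05, adjusted p = 0.77) were not called. The median of the 7 was -0.05. Of the 4 proteins that belong to U1 or U2 alone, 3 were higher: SNRPC of U1 (0.52, adjusted p = 1.64e-05), SNRPB2 of U2 (0.39, adjusted p = 0.0101) and SNRPA1 of U2 (0.37, adjusted p = 0.00725). SNRPA of U1 was at -0.02 (adjusted p = 0.89).

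The LSM genes encode rings related to the Sm ring, one on U6 in the nucleus and one that promotes decapping of mRNA in the cytoplasm. LSM3 (0.44, adjusted p = 0.000762) and LSM7 (0.37, adjusted p = 0.0039), which belong to both rings, were higher. LSM6 (0.34, adjusted p = 0.0596), LSM1 (0.12), LSM4 (0.12), LSM8 (0.02, adjusted p = 0.897) and LSM5 (-0.04, adjusted p = 0.824) were not called. LSM12, an RNA-binding protein outside these rings, had the largest value (0.66, 1.58-fold, adjusted p = 1.28e-05). Of the LSM pair that belongs to the U7 ring of histone mRNA processing, LSM11 was at 0.27 (adjusted p = 0.0208) and LSM10 at -0.30 and not called (adjusted p = 0.141).

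The U2AF heterodimer pairs U2AF2, which binds the polypyrimidine tract, with U2AF1, which contacts the splice acceptor. U2AF2 was lower (log2 fold change -0.46, 1.37-fold lower, adjusted p = 1.74e-06). U2AF1 was listed at -1.93, numerically the lowest value of all members, with an adjusted p of 0.514, so the size of its change cannot be read from this table. GENCODE 29 holds a near-identical gene, U2AF1L5, on the same chromosome 21, and 87.3% of the stretches of 100 bases in the U2AF1 transcript occur unchanged in a U2AF1L5 transcript; U2AF1L5 was listed at 0.03 (adjusted p = 0.934). Reads of this pair may be divided or set aside by counting, so both values are uncertain. U2AF1L4 was at -0.13 (adjusted p = 0.888).

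The PRPF genes, human counterparts of the yeast pre-mRNA processing genes, held all 3 called changes of at least 2-fold. PRPF38B (chromosome 1, 108692323 to 108701803, GENCODE 29 on GRCh38) had the largest increase of the members, with a log2 fold change of 1.14 (2.2-fold, adjusted p = 1.69e-30). PRPF4 (chromosome 9, 113275343 to 113292905), which partners PRPF3 in the U4/U6 snRNP, was at 1.01 (2.02-fold, adjusted p = 1.41e-24). PRPF40B (chromosome 12, 49568218 to 49644666), a U1-associated protein, was at -1.89 (3.7-fold lower, adjusted p = 1.35e-09). PRPF38A, which shares a protein family with PRPF38B, was at 0.19 (adjusted p = 0.0547) and was not called.

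The extremes of the class are shown by their promoters (RefSeq, GRCh38.p14, 300 bases), PRPF38B at chr1:108692060-108692359 on the plus strand and PRPF40B at chr12:49623311-49623610 on the plus strand, with the motifs that are present in capitals. The RefSeq window of PRPF40B starts well inside the GENCODE 29 interval given above, so it is another annotated start than the first base of that interval.
PRPF38B: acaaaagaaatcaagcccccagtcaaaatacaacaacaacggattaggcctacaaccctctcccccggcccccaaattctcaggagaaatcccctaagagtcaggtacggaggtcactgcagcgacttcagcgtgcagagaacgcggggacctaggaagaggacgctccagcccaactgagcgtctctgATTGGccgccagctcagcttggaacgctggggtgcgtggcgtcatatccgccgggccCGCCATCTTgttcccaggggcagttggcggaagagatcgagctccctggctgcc
PRPF40B: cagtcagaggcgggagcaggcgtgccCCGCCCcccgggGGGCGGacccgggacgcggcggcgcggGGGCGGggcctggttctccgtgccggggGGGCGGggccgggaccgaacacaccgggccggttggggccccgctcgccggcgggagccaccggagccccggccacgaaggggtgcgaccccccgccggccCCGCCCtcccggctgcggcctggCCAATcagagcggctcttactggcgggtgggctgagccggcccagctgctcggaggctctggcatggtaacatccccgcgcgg
PRPF38B holds 1 CCAAT box and 1 YY1 core in 59.3% GC, and PRPF40B holds 1 CCAAT box and 5 GC boxes in 80.3% GC. The YY1 core was in 4 of 27 promoters of members called higher (14.8%), in 0 of 18 of those called lower and in 0 of 23 not called. It was in 5.88% of the promoters of all members and 3.17% of those of all genes of the table. Of the 4 promoters, 2 belong to SF3 subunits. With so few matches, whether this core goes with the direction was not tested.

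Smaller changes filled the rest of the class. PRPF18, a second-step factor, was at 0.58 (adjusted p = 0.0107), PRPF39 of the U1 snRNP at 0.31 (adjusted p = 0.011), the ubiquitin ligase PRPF19 at 0.29 (adjusted p = 0.00176) and PRPF3 at 0.28 (adjusted p = 0.0124). The kinase PRPF4B was lower (-0.36, adjusted p = 0.000462). The bridging protein PRPF6 (0.20, adjusted p = 0.0747) was not called. PRPF31, a U4/U6 protein mutated in inherited retinal degeneration, was listed at 2-fold lower with an adjusted p of 0.289 and did not pass.

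Several members share sequence or exons with another gene, and the sources used here do not say whether strand was used in counting. PRPF40B shares 48.7% of its exonic bases with other genes, most with FMNL3, which was itself lower (-1.62, adjusted p = 1.95e-21 in the authors' deposited table). SNRPD3 shares 24.6%, most with GUCD1, which was also lower (-0.83, adjusted p = 2.15e-13). SRSF1 shares 60.7%, most with AC015813.2 (0.77, adjusted p = 0.0015). SRSF9 shares 46.2%, most with GATC (0.21, adjusted p = 0.133), and PRPF18 48.5%, most with AL157392.5 (0.27, adjusted p = 0.518). HNRNPA1 and HNRNPA1P48 have 100-base stretches in common, 29.9% of those in the HNRNPA1P48 transcript. In all, 19 of 80 members share at least 20% of their exonic bases or stretches with another gene; the part of this sharing in their values was not tested.

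A head-to-head neighbour within 1000 bases was annotated for 14 of the 80 members (17.5%) and for 8.05% of the other protein-coding genes in the table, and 13 of the 14 neighbours had a value. Both genes were called in the same direction in 3 pairs and in opposite directions in 3. SRSF7 (0.69) faces GEMIN6, an snRNP assembly gene (0.49, adjusted p = 0.00689). HNRNPA1 (-0.34) faces the heterochromatin gene CBX5 (-1.09, adjusted p = 9.94e-21), and PRPF40B faces MCRS1 (-0.94, adjusted p = 3.12e-19) at its GENCODE 29 start, which is not the promoter printed above. HNRNPH2 (-0.88) faces GLA (0.56, adjusted p = 1.1e-05), SRSF9 (-0.55) faces DYNLL1 (0.44, adjusted p = 0.000286) and HNRNPUL2 (-0.35) faces TTC9C (0.48, adjusted p = 0.00452).

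Splicing genes outside the symbol rule were read from 8 lists. Together 68 of 151 with an adjusted p (45%) were higher in the authors' deposited table, against 29.7% of all genes tested, and 34 (22.5%) lower, against 27.9%. A change of at least 2-fold was called in 16 of them (13 higher and 3 lower, 10.6% in all), against 24.1% of all genes tested. The PRP19 complex and catalytic-stage list, which remodels the spliceosome for catalysis, was 16 higher and 4 lower of 24 (median log2 fold change 0.34), with the smallest p among the higher genes in SNW1 (1.27, adjusted p = 1.09e-33), BCAS2 (1.01) and XAB2 (0.84), PQBP1 at 1.02, and the helicases DDX41 (-0.76) and DHX8 (-0.39) and the protein CWC15 (-0.51) lower. Partners of the U2 snRNP and branch site were 9 higher and 3 lower of 16 (median 0.33), with the smallest p among the higher genes in SUGP1 (1.15), ZRSR2 (1.11) and the SF3B subunit PHF5A (0.73, adjusted p = 1.74e-10), and DDX46 (-0.30), HTATSF1 (-0.25) and U2SURP (-0.20) lower.

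Other snRNP proteins were divided, 7 higher (35%) and 8 lower (40%) of 20, against 29.7% and 27.9% of all genes tested. In the U11/U12 particle of the minor spliceosome PDCD7 (1.56, adjusted p = 1.09e-49), SNRNP48 (0.98) and ZMAT5 (0.80) were higher, and RNPC3 (-1.53, adjusted p = 2.41e-30), ZCRB1 (-0.78) and SNRNP25 (-0.45) lower. In the major spliceosome USP39 (1.02), SART1 (0.86), SNU13 (0.77) and SNRNP40 (0.55) were higher. DDX23 (-0.86), SNRNP27 (-0.75), SNRNP70 of U1 (-0.72, adjusted p = 5.38e-16), the helicase SNRNP200 (-0.52) and the GTPase EFTUD2 (-0.31) were lower. The snRNP assembly list was 9 higher (52.9%) and 4 lower (23.5%) of 17. In it the methyltransferase PRMT5, which modifies Sm proteins, was at 1.10 (adjusted p = 1.53e-37), the snRNA export adaptor PHAX at 1.14 and DDX20 at 0.74. The import adaptor SNUPN was at -1.01, GEMIN8 at -1.42 and NCBP1 at -0.30.

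**Figure D5:**
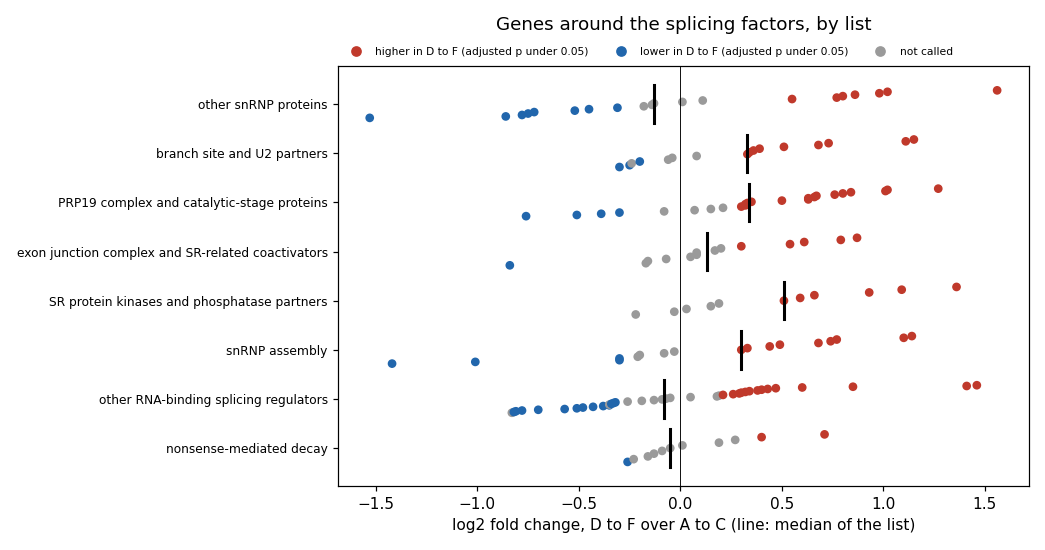
Log2 fold change (libraries D to F over A to C, authors' deposited table) of each gene with an adjusted p in 8 lists of splicing and RNA decay genes, coloured by call; the black line is the list's median. The list of SR protein kinases and phosphatase partners has the highest median (0.51), and the regulators and other snRNP proteins spread to both sides of 0.

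Other RNA-binding regulators were 14 higher (36.8%) and 13 lower (34.2%) of 38, against 29.7% and 27.9% of all genes tested. MBNL2 (1.41, adjusted p = 1.66e-40), KHDRBS3 (1.46) and PTBP2 (0.85) were higher, and NONO (-0.82), KHDRBS1 (-0.78) and PTBP3 (-0.81) lower. Within paralogue sets the values thus went both ways: PTBP1 was at 0.26, and MBNL1 at 0.43 with MBNL3 at -0.70. The exon junction and SR-related coactivator list was 5 higher (35.7%) and 1 lower (7.14%) of 14. Its 42.9% called in either direction stands beside 57.6% of all genes tested. In it PNN (0.79), DDX39A (0.87) and SAP18 (0.61) were higher and SRRM2 (-0.84, adjusted p = 0.00681) lower. Of 11 nonsense-mediated decay genes, SMG9 (0.71) and UPF2 (0.40) were higher (18.2%).

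The labelled cell type was looked at through its markers, as differences only, since levels were not used. The tuft cell-like factor POU2F3, known to define the subtype to which H1048 belongs, was in the table and lower (-1.71, adjusted p = 3.42e-89), and in a list of 12 tuft cell markers 5 were lower and 2 higher; PTGS1, LRMP, BMX and ANXA1 were added to that list after the other 8. Neuroendocrine markers were 3 higher and 2 lower of 6, fibroblast markers 1 higher and 4 lower of 7, leukocyte markers 2 higher (LYZ and CD79A) and 0 lower of 6, and endothelial markers 0 of 4. Over all genes tested 29.7% were higher, 27.9% lower and 57.6% called in either direction, against 58.3% of the tuft cell list called. The part of such differences in the values of the splicing factor genes was not tested.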

How the data were processed

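RNA from 6 samples of H1048 cells, 3 given ISP-I and 3 given DMSO, was sequenced by the authors. Per the submitters' processing notes, DESeq2, HTSeq, STAR and Trimmomatic were used with build hg38. Their versions and settings, the annotation and any use of strand were not given in the sources used here. Per the file headers, the authors deposited log2 fold changes with raw and adjusted p-values for 16953 genes, comparing libraries D to F with A to C; a smaller deposited table of 4021 genes repeats part of it and holds 3 of the members. Positive values were taken to mean more RNA in D to F, from the order of the letters in the comparison's name. The labels do not connect letters with samples, so 36 columns of values per library were not used, depth is not given here, and no count test, standard error or level was computed.

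An adjusted p of exactly 1 (977 genes) was treated as none; the other 15976 equal a Benjamini-Hochberg adjustment of the deposited p over those genes to within 1.19e-15. Members were the 80 symbols fitting the fixed pattern, and all matched 1 gene of GENCODE 29 (GRCh38). Members and lists were chosen with earlier results of these data known. Named genes were every called member at least 1.5-fold changed, the 2 called genes of each class with the smallest p in each direction, those nearest 0 and those without an adjusted p, with the 3 smallest p in each direction in each list; further genes named were chosen after their values were seen, as were the 8 motifs. Shared sequence was counted as 100-base stretches of the longest coding transcript present, on either strand, in transcripts of other genes. Values of 1 member and 1 listed gene are not reported here by name. Promoter sequences are from RefSeq (GRCh38.p14). The adjustment code was tested on simulated data. Alternatives changed the threshold, adjustment, minimum fold, centring and membership. Python 3.11.15, pandas 2.3.3, numpy 2.4.6 and matplotlib 3.10.9 were used.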

Additional observations from a re-analysis of the deposited data

How the results depend on the processing

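The counts of members higher (29) and lower (21), of SF3 genes higher (8) and of hnRNP genes lower (11) were compared under alternatives. They stayed within 1.5 times under an adjusted p threshold of 0.01, Benjamini-Hochberg adjustment over every gene, Benjamini-Yekutieli adjustment and each change of membership run. Centring on the median of all genes left the adjusted p as it was. It moved fold changes by less than the smallest called one of a member (SRSF3, -0.21), so it could not change these counts. Bonferroni adjustment left 13 members higher and 10 lower, 4 SF3 genes higher, 5 hnRNP genes lower, and 38 higher and 16 lower in the other splicing lists (68 and 34 as reported). A minimum of 1.5-fold left 10 and 6 members, 2 SF3 genes, 3 hnRNP genes, and 38 and 13 list genes; a minimum of 2-fold left 2 and 1 members, 0 SF3 genes, 0 hnRNP genes, and 13 and 3 list genes. At a threshold of 0.01, 9 members lost their call, among them SF3B1, SF3B6, SRSF3 and SNRPE. Without the 19 members that share at least 20% of their sequence with another gene, an alternative chosen after seeing the data, 24 members were higher and 15 lower, with 8 hnRNP genes lower. The members' median log2 fold change (0.06) turned to -0.01 when centred on the median of all genes (0.06). That centre included genes with no adjusted p, while the members' median did not, and over the genes tested the median was 0.05. The members' value was 0.03 as a mean and 0.03 without the LSM genes. It lies near 0, and its sign after centring rests on which genes set the centre. Leaving out replicates, a count model and a filter on low counts were not run, since no values per library were used. No paired analysis was possible because no label ties the values per library to samples and their replicate numbers. Precision is limited by 3 libraries a side, and standard errors are not given here.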
